A study of Mus musculus with 8 samples.

Results

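Genes that mark macrophages and other immune cells were described in mouse heart ventricles with and without Med1, a subunit of the Mediator complex that links transcription factors to RNA polymerase II. A list of 33 such genes was drawn up by symbol, without use of the values, and 32 of them were found among the 23847 gene rows of the deposited table. Where a symbol had several rows, the most abundant one was taken. The list was chosen with earlier results of these data known. Adgre1, which encodes the macrophage antigen F4/80, has no row under that symbol. A row under its older symbol Emr1 is given beside the members and not counted among them.

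The study set hearts without Med1 against hearts with it, and 8 libraries of poly(A) RNA were made from ventricles at postnatal day 21. The 4 knockout libraries came from C57BL/6 mice with a cardiac knockout of Med1, and the 4 libraries labelled WT came from C57BL/6 mice that the design text calls Med1 fl/fl, with Med1 floxed and intact. What drives the deletion, the sex of the mice and whether each library is 1 animal remain unstated in the labels and the design text, so p-values measure the spread between these libraries only. Values are FPKM (sequenced fragments over transcript length and over the fragments of the whole library), as the authors computed them. Med1 itself had 7.80, 8.37, 7.89 and 9.15 FPKM in the knockout libraries, against 15.5, 16.1, 10.6 and 16.8 FPKM in WT (limma log2 change -0.74, adjusted p = 0.0011).

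The healthy ventricle holds resident macrophages that are seeded before birth, renew themselves largely in place and clear debris from cardiomyocytes. They are recognised by Csf1r, the receptor for the growth factors CSF1 and IL-34, by the scavenger receptors Cd163 and Mrc1 and by strong expression of the complement subunits of C1q. Monocytes that carry the chemokine receptor Ccr2 enter from the blood along gradients of its ligand Ccl2 and add to these cells after injury. Neutrophils, T cells and B cells are sparse in undamaged ventricle. RNA was taken from whole ventricle, so that fewer cells of a type and less RNA per cell cannot be told apart in any value below.

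Defining markers of macrophages were present in all 8 libraries, with Csf1r between 9.81 and 22.2 FPKM in the knockout and between 14.0 and 20.6 FPKM in WT. The T and B cell genes Lck, Cd3e and Cd79a were at most at 1.48 FPKM in any library other than WT 3. Most of the immune markers did not pass the test between the groups. The test was limma on log2(FPKM + 1) over the 11974 genes whose FPKM averaged 1 or more across the 8 libraries, and a gene was called at a Benjamini-Hochberg adjusted p under 0.05. Of the 32 members, 30 reached that level, and the T cell gene Cd3e and the B cell gene Cd79a did not. The mean was taken over both groups, so a gene under 1 FPKM on average in 1 group reached it only through the other. For such a gene a call could hardly go any way but higher in that other group. Among the members called, this held for Ccr2 and Lcn2 (0.814 and 0.995 FPKM on average in WT). The test called 5 of the 30 higher in the knockout, namely Lgals3, Lcn2, Ccl2, Ccr2 and S100a8, none lower, and 25 in neither direction. At an unadjusted p under 0.05, 5 members were higher and 1 was lower. The share of all genes was not counted at that threshold. It is at least 44.9% higher and 16.4% lower, since every gene called also passes unadjusted. Over all genes tested 44.9% were called higher and 16.4% lower, against 16.7% of the members in both directions together. The median log2 change of the 30 members was 0.09, against 0.25 for all genes tested.

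For 3 members the 4 knockout values lay wholly above the 4 WT values, namely Lgals3, Lcn2 and S100a8, and for none wholly below. Over all genes tested 41.7% lay wholly above and 15.3% wholly below. A different share of each library's fragments going to abundant genes shifts all FPKM of that library together. After median-of-ratios rescaling, which divides each library by a factor set by all genes (1.07 to 1.12 for the knockout libraries and 0.885 to 0.919 for WT), the median change of all genes was 0.01 and that of the members was -0.18. On that scale 3 members were higher in the knockout (Lgals3, Lcn2 and Ccl2) and 3 lower (C1qa, C1qb and C1qc), against 27.0% and 26.9% of all genes tested. Directions given below are those of the deposited FPKM, and the rescaled value or count is added where it changes a call.

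Genes of tissues other than ventricle were high in single libraries in which some members were high too. WT 3 held genes of developing T cells that the other WT libraries lacked. The recombinase gene Rag1 had 10.1 FPKM in WT 3, against 0 to 0.0926 FPKM in the other 7 libraries. All 7 thymocyte markers had their highest value in WT 3, and their summed level was 48.3 FPKM there, 0.648 to 0.887 FPKM in the other WT libraries and 0.812 to 2.39 FPKM in the knockout libraries. Knockout 4 held genes of brown fat, airway, mesothelium and atrium. The brown fat uncoupler Ucp1 had 102 FPKM in knockout 4 and 8.82 FPKM in knockout 1, against 0.0511 and 0.202 FPKM in knockout 2 and 3 and 0 FPKM in the 4 WT libraries. The club cell gene Scgb1a1 had 111 and 11.1 FPKM in knockout 4 and 1, against 0 and 0.504 FPKM in knockout 2 and 3 and 0 to 1.68 FPKM in WT. The atrial gene Bmp10 had 66.0 and 6.21 FPKM in knockout 4 and 1 and was listed at 0 in the other 6 libraries. The summed level of the atrial markers was above WT in every knockout library. The 6 atrial markers summed to 181, 114, 31.3 and 1801 FPKM in knockout 1 to 4, against 15.2 to 22.6 FPKM in WT. Over the 8 libraries Myl7, Myl4, Sln and Dkk3 were called higher and Stard10 lower, against 44.9% and 16.4% of all genes tested. In the 6 libraries the same 4 were called higher and 1 marker lower, against 41.1% and 15.3% of all genes. Leaving out knockout 4 and 1 therefore does not remove the difference in atrial genes between the groups. Knockout 1 thus carried the fat, airway and atrial genes at lower levels than knockout 4. Their part in the members' values was not tested beyond leaving libraries out. Values are therefore also given for 6 libraries, without knockout 4 and WT 3, and for 5 libraries, without knockout 1 as well. The set of 5 was chosen after the data were seen.

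**Figure D1:**
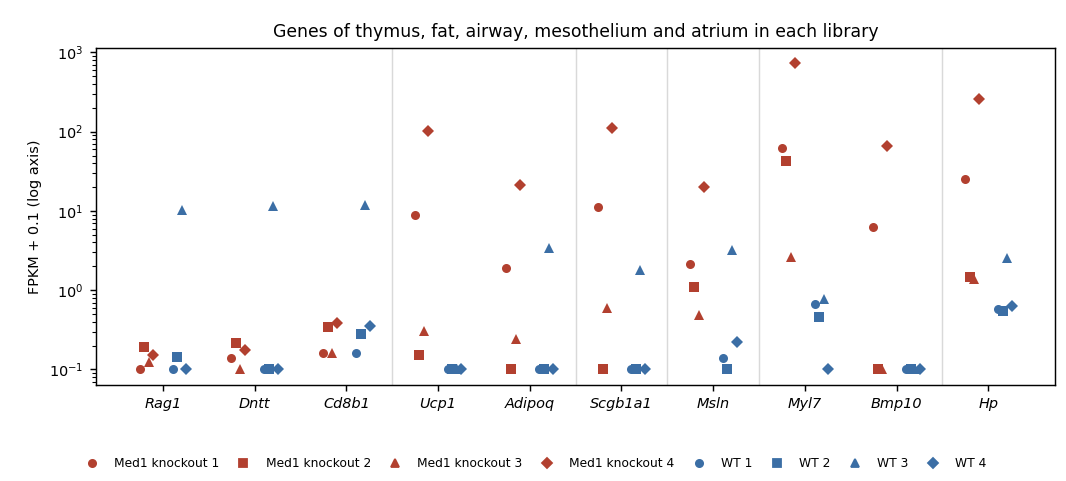
FPKM plus 0.1 on a log axis for genes of developing T cells (Rag1, Dntt, Cd8b1), fat (Ucp1, Adipoq), airway (Scgb1a1), mesothelium (Msln) and atrium (Myl7, Bmp10) and for haptoglobin (Hp), with 1 point per library, knockout in red left of WT in blue and the marker shape giving the replicate number. WT 3 stands apart in the T cell genes, with 10.1 FPKM of Rag1, and knockout 4 in the others, with 102 FPKM of Ucp1 and 111 FPKM of Scgb1a1.

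Knockout 4 was the highest of the 4 knockout libraries in 21 of the 30 members, against 27.8% of all genes tested. Knockout 1 was the highest of them in 3 of 30, against 32.2% of all genes. WT 1 was the highest of the 4 WT libraries in 18 of 30, against 29.1% of all genes, and WT 3 in 3 of 30, against 23.5%. The members also varied more among the libraries of a group than other genes did. Their median coefficient of variation was 37.8% in the knockout and 29.3% in WT, against 13.8% and 10.0% for all genes tested. Without knockout 4 and WT 3 it was 27.2% and 23.0%, against 12.3% and 9.73%. Members and all genes were not matched for abundance, on which this coefficient can depend.

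In the 6 libraries the test called 3 members higher in the knockout, namely Lgals3, Lcn2 and S100a8, and none lower, against 41.1% and 15.3% of all genes. At an unadjusted p under 0.05 these 6 libraries had 5 members higher and 1 lower. The share of all genes at that threshold was not counted and is at least 41.1% higher and 15.3% lower. In the 5 libraries it called 4 higher (those 3 and Ccl2) and 1 lower (C1qc), against 40.1% and 15.2% of all genes. The median change of the members was -0.12 in the 6 libraries and -0.28 in the 5, against 0.23 and 0.22 for all genes.

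**Figure D2:**
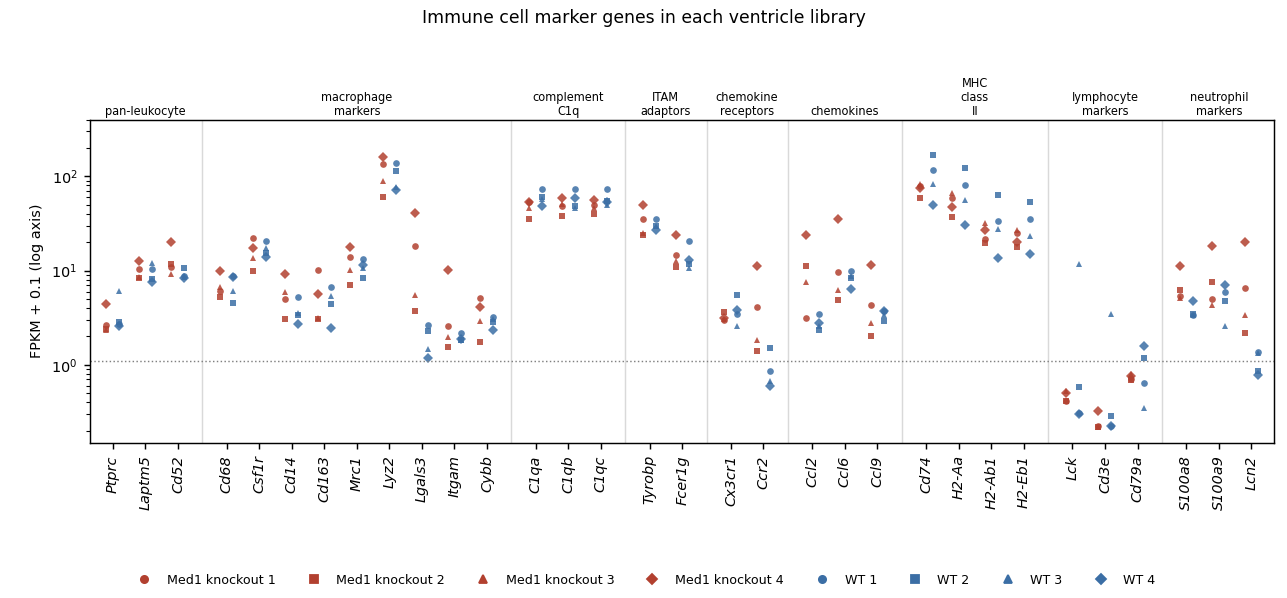
FPKM plus 0.1 on a log axis for the 32 members, grouped by role, with 1 point per library, knockout in red left of WT in blue and the marker shape giving the replicate number; the dotted line marks 1 FPKM, the minimum set on the mean for testing. The points of most members overlap between the groups, those of Lgals3, Lcn2 and S100a8 do not, and knockout 4 is the highest knockout library in 21 of the 30 members tested.

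The sequence before the start of Lgals3, Lcn2 and S100a8 is shown because these 3 genes were called in the 8, the 6 and the 5 libraries alike. Each line gives the 250 bases before the annotated start, from RefSeq (GRCm38.p6, which is mm10), on the gene's own strand. They lie at chr14:47373610-47373859 on the plus strand for Lgals3, at chr2:32387740-32387989 on the minus strand for Lcn2 and at chr3:90668821-90669070 on the plus strand for S100a8. Capitals mark matches, on either strand, to the core letters GAGGAA bound by PU.1, the factor that specifies myeloid cells, and to TTGCNNAA of the C/EBP family.
Lgals3: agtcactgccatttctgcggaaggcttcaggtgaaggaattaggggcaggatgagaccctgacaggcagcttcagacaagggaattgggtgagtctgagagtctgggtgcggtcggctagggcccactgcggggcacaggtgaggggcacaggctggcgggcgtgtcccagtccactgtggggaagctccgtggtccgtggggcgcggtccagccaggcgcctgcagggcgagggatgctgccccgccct
Lcn2: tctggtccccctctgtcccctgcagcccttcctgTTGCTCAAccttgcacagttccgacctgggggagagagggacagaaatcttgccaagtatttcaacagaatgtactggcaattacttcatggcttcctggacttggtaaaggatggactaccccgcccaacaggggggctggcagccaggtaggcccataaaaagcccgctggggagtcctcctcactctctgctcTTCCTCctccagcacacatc
S100a8: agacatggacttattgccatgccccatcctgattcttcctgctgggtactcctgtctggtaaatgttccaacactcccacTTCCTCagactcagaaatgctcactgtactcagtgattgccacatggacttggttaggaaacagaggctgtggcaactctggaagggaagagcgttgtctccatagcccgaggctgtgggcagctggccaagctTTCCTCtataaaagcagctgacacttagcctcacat
Lcn2 held a C/EBP match that begins 216 bases before the start and a PU.1 core on the opposite strand that begins 20 bases before it. S100a8 held 2 PU.1 cores on the opposite strand, beginning 170 and 36 bases before the start. Lgals3 held neither, nor the AP-1 letters TGANTCA or the NF-kB letters GGGNNTTCC, both also searched on both strands. Promoter windows of 300 bases, from 250 before to 50 after the start, were found for 24 of the member symbols, 26 windows in all. The PU.1 core was in 13 of these 26, or 50.0%, against 28.3% of the 32851 windows of all genes. AP-1, NF-kB and C/EBP letters were each in 3 member windows, or 11.5%, against 7.81%, 5.82% and 10.8% of all windows. Such matches describe letters only and say nothing of binding in these hearts.

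Among the pan-leukocyte markers none was called. Ptprc encodes CD45, the phosphatase on all nucleated blood cells, and had 2.55, 2.29, 2.25 and 4.37 FPKM in the knockout libraries, against 2.62, 2.77, 6.00 and 2.48 FPKM in WT. Knockout 4 and WT 3 each stood above the other libraries of their group, and the remaining 6 lay between 2.25 and 2.77 FPKM. Its log2 change was -0.18 ± 0.249 (SE, adjusted p = 0.556), and -0.11 in the 6 libraries (adjusted p = 0.392). Laptm5, a lysosomal membrane protein of blood cells, averaged 9.85 ± 1.92 FPKM in the knockout and 9.40 ± 2.02 FPKM in WT (SD, n = 4 each). Cd52, a small surface glycoprotein of lymphocytes and macrophages, had 10.8, 11.6, 9.02 and 20.0 FPKM in the knockout libraries, against 8.69, 10.5, 8.39 and 8.25 FPKM in WT (log2 change 0.42 ± 0.204, adjusted p = 0.0976). The Cd52 values of the groups overlapped, and knockout 4 was the highest. With knockout 3 left out the Cd52 change was 0.56 and passed (adjusted p = 0.0404). It was 0.20 without knockout 4 (adjusted p = 0.153), 0.18 in the 6 libraries (0.276) and 0.17 after rescaling (0.502).

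The macrophage markers had 9 members with a row, of which Lgals3 was called higher and 8 were not called. The lysozyme gene Lyz2 was the most abundant member in FPKM, with 133, 60.9, 88.1 and 159 FPKM in the knockout libraries, against 138, 114, 76.7 and 71.9 FPKM in WT. The groups overlapped almost fully, and its log2 change of 0.09 had an interval from -0.61 to 0.80 (95%). Lyz1, a near-identical copy of Lyz2 whose reads the counting could share with it, averaged 1.88 FPKM in the knockout and 1.85 FPKM in WT. Csf1r had 22.2, 9.81, 13.4 and 17.4 FPKM in the knockout libraries, against 20.6, 15.4, 17.1 and 14.0 FPKM in WT. Its change was -0.13 ± 0.219 (SE, adjusted p = 0.617), and the knockout libraries enclosed the range of WT.

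Cd68, a lysosomal glycoprotein of phagocytes, averaged 6.88 ± 2.02 FPKM in the knockout and 6.86 ± 2.04 FPKM in WT. Mrc1, the mannose receptor, averaged 12.0 ± 4.63 FPKM in the knockout and 10.9 ± 2.10 FPKM in WT. The haemoglobin scavenger receptor Cd163 had 9.93, 2.93, 3.05 and 5.52 FPKM in the knockout libraries, against 6.67, 4.32, 5.30 and 2.36 FPKM in WT. None of these 3 passed, and the groups overlapped in each. The Emr1 row, F4/80, had 4.62, 3.33, 4.31 and 4.76 FPKM in the knockout libraries, against 6.42, 4.63, 3.73 and 4.06 FPKM in WT (log2 change -0.11 ± 0.153, adjusted p = 0.569). The groups overlapped there too, with WT 1 the highest library.

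Cd14, the co-receptor for bacterial lipopolysaccharide, had 4.90, 2.95, 5.85 and 9.15 FPKM in the knockout libraries, against 5.09, 3.29, 3.47 and 2.63 FPKM in WT. Its change of 0.48 ± 0.268 did not pass (adjusted p = 0.144), and was 0.25 in the 6 libraries. It passed when knockout 2 alone was left out (log2 change 0.71, adjusted p = 0.0235). Itgam, which encodes the CD11b chain of the integrin Mac-1, had 2.46, 1.43, 1.88 and 10.1 FPKM in the knockout libraries, against 2.06, 1.75, 1.72 and 1.77 FPKM in WT. Its mean was 2.18 times that of WT over the 8 libraries and 1.04 times without knockout 4 and WT 3. The excess of Itgam in the knockout mean lay in knockout 4, the library with the genes of fat, airway and atrium. Cybb, the membrane subunit of the phagocyte oxidase, averaged 3.36 ± 1.43 FPKM in the knockout and 2.79 ± 0.388 FPKM in WT and was not called.

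Lgals3 had the largest change among the members. It encodes galectin-3, a sugar-binding protein that macrophages secrete and that fibroblasts and epithelia also make, and it lies on chromosome 14 from 47373860 to 47386167 (mm10, protein-coding). The knockout libraries had 17.9, 3.60, 5.38 and 41.0 FPKM, against 2.57, 2.21, 1.38 and 1.09 FPKM in WT. All 4 knockout libraries lay above all 4 WT libraries, and knockout 4 and 1 were the highest. The means were 17.0 ± 17.2 FPKM in the knockout and 1.81 ± 0.695 FPKM in WT (SD, n = 4 each), a ratio of 9.36. In limma the log2 change was 2.17 ± 0.611 (SE, adjusted p = 0.0121). Without knockout 4 and WT 3 the means were 8.98 ± 7.82 FPKM in the knockout and 1.96 ± 0.772 FPKM in WT (n = 3 each), and the change was 1.51 (adjusted p = 0.035). With knockout 1 left out as well it was 0.91 (adjusted p = 0.0274).

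The other galectins were called in both directions. Lgals1, which mesenchymal cells express strongly, rose to 488 FPKM on average in the knockout, against 241 FPKM in WT (log2 change 0.98, adjusted p = 0.000842). Lgals8 was called higher as well, with 24.6 FPKM in the knockout and 17.6 FPKM in WT (log2 change 0.45), but not after rescaling (0.18, adjusted p = 0.135). Lgals4 was called lower, with 8.54, 3.32, 2.29 and 3.04 FPKM in the knockout libraries and 34.1, 82.7, 27.9 and 17.3 FPKM in WT (log2 change -2.87, adjusted p = 0.000547). Of the 5 other galectins tested, 2 were thus higher and 1 lower, against 44.9% and 16.4% of all genes.

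The 3 chains of complement C1q, which starts the classical pathway and is made in the heart chiefly by macrophages, were among the most abundant members. C1qa had 52.8, 35.3, 46.2 and 52.9 FPKM in the knockout libraries, against 72.9, 60.9, 57.9 and 48.1 FPKM in WT. C1qb had 48.0, 37.9, 50.2 and 58.2 FPKM in the knockout libraries, against 72.7, 48.0, 46.2 and 58.9 FPKM in WT. C1qc had 50.0, 39.7, 46.4 and 55.6 FPKM in the knockout libraries, against 73.2, 54.1, 49.5 and 53.5 FPKM in WT. In all 3 the groups overlapped, WT 1 was the highest library and knockout 2 the lowest. The log2 changes were -0.35, -0.21 and -0.25, with adjusted p = 0.0763, 0.308 and 0.14 in limma, so that none was called.

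The call on C1q turned on the scaling. After rescaling the changes were -0.63 for C1qa, -0.48 for C1qb and -0.53 for C1qc, with adjusted p = 0.00492, 0.0293 and 0.00734. In the 6 libraries, on the deposited scale, they were -0.43, -0.38 and -0.39, with adjusted p = 0.0937, 0.0941 and 0.0542. The direction was the same in each of these fits. C1qa alone was also called when WT 4 was left out (log2 change -0.45, adjusted p = 0.0358). The genes lie side by side on chromosome 4, C1qb from 136880145 to 136886177, C1qc from 136889802 to 136892914 and C1qa from 136895916 to 136898844 (mm10).

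Other complement genes were counted beside C1q. Of 14 tested, 5 were called higher in the knockout (C4b, Cfb, Serping1, Cd55 and C7) and 1 lower (Masp1), against 44.9% and 16.4% of all genes tested. C4b, the complement component that the C1 complex cleaves, had 4.58, 2.36, 5.75 and 15.7 FPKM in the knockout libraries, against 1.76, 1.51, 1.28 and 0.630 FPKM in WT (log2 change 1.59, adjusted p = 0.00846). Serping1, the inhibitor of the C1 proteases, averaged 110 FPKM in the knockout and 57.8 FPKM in WT (log2 change 0.88, adjusted p = 0.00644). Both passed in the 6 libraries too, with log2 changes of 1.16 and 0.73. The median change of the 14 was 0.51, against 0.25 for all genes.

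Neither adaptor that carries an immunoreceptor tyrosine-based activation motif (ITAM) was called. Tyrobp (DAP12) had 35.4, 23.9, 24.8 and 49.8 FPKM in the knockout libraries, against 35.4, 29.7, 29.6 and 26.7 FPKM in WT. Fcer1g, the common Fc receptor gamma chain, had 14.7, 10.7, 12.4 and 23.7 FPKM in the knockout libraries, against 20.7, 11.6, 10.5 and 12.8 FPKM in WT. The log2 changes were 0.08 and 0.12 over the 8 libraries and -0.14 and -0.20 in the 6, and neither passed in either fit. Of 9 partners of these adaptors and Fc receptors tested, 3 were called higher (Trem2, Syk and Plcg2) and none lower. Of all genes tested, 44.9% were called higher and 16.4% lower. Plcg2 did not pass in the 6 libraries (adjusted p = 0.0873). Trem2, a lipid receptor of macrophages that signals through Tyrobp, had 3.77, 2.19, 2.90 and 4.34 FPKM in the knockout libraries, against 1.35, 1.53, 1.46 and 1.01 FPKM in WT. The groups did not overlap (log2 change 0.86, adjusted p = 0.00163), and the change was 0.77 in the 6 libraries.

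The 2 chemokine receptors on the list differed in their result. Cx3cr1, the fractalkine receptor of resident macrophages, had 2.86, 3.51, 2.99 and 3.05 FPKM in the knockout libraries, against 3.39, 5.45, 2.51 and 3.67 FPKM in WT, and was not called (log2 change -0.18 ± 0.168, adjusted p = 0.375). Ccr2, the receptor that marks recruited monocytes (chromosome 9 from 124102183 to 124109140), had 4.03, 1.30, 1.72 and 11.2 FPKM in the knockout libraries, against 0.765, 1.41, 0.579 and 0.498 FPKM in WT. Knockout 4 and 1 were the highest, and knockout 2 lay below WT 2. The Ccr2 change was 1.31 ± 0.465 (SE, adjusted p = 0.0337). It was 0.77 in the 6 libraries (adjusted p = 0.0723) and 0.43 in the 5 (adjusted p = 0.135), and 1.15 after rescaling (adjusted p = 0.0567). The call on Ccr2 was therefore lost in each of these 3 fits. It was also lost when knockout 1 (adjusted p = 0.0736), WT 1 (0.0686), WT 3 (0.0735) or WT 4 (0.0779) was left out alone, with log2 changes of 1.25, 1.31, 1.25 and 1.23. The Ccr2 call was lost as well with no expression minimum (adjusted p = 0.0668) and after quantile normalization (0.0512).

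Other members of the receptor and ligand families were tested beside them, where 44.9% of all genes were called higher and 16.4% lower. Of 5 other chemokine receptors, Ccr1 and Cxcr6 were called higher and none lower. Cxcr6 had 3.86, 1.62, 2.64 and 2.93 FPKM in the knockout libraries, against 0.230, 0.472, 0.123 and 0.0900 FPKM in WT (log2 change 1.59, adjusted p = 0.000114), and the groups stood well apart. It reached the minimum for testing only through its knockout values. Cx3cl1, the ligand of Cx3cr1, had 5.30, 7.44, 9.55 and 5.37 FPKM in the knockout libraries, against 1.41, 1.66, 0.975 and 1.09 FPKM in WT (log2 change 1.77, adjusted p = 3.65e-05). Of 12 other chemokines tested, Cx3cl1 and Ccl8 were called higher and Cxcl12 lower. In the 6 libraries the log2 changes were 1.52 for Cxcr6 and 1.79 for Cx3cl1, and both passed.

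Ccl2, the monocyte attractant that binds Ccr2, was the only one of the 3 chemokine members called. It lies on chromosome 11 from 82035577 to 82037452 (mm10, protein-coding). The knockout libraries had 3.06, 11.2, 7.41 and 23.6 FPKM, against 3.39, 2.22, 2.46 and 2.70 FPKM in WT. Knockout 1 lay within the WT range and the other 3 knockout libraries above it. The change was 1.46 ± 0.448 (SE, adjusted p = 0.0184) over the 8 libraries, 1.0 in the 6 (adjusted p = 0.0523) and 1.44 in the 5 (adjusted p = 0.00206). Unlike Lgals3, Lcn2 and Ccr2, Ccl2 was high in knockout 2 and 3 and low in knockout 1.

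Ccl6 and Ccl9, neighbouring chemokine genes of myeloid cells on chromosome 11, were not called. Ccl6 had 9.60, 4.82, 6.07 and 35.3 FPKM in the knockout libraries, against 9.92, 8.18, 8.57 and 6.26 FPKM in WT. Ccl9 had 4.26, 1.94, 2.69 and 11.3 FPKM in the knockout libraries, against 3.63, 2.83, 3.31 and 3.60 FPKM in WT. In both, knockout 4 was far above the rest and knockout 2 was the lowest. Without knockout 4 and WT 3 the knockout means were 0.842 and 0.883 times WT, where over the 8 libraries they were 1.69 and 1.51 times WT. A row for E230016K23Rik overlaps Ccl6, and reads of the 2 may have been shared.

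**Figure D3:**
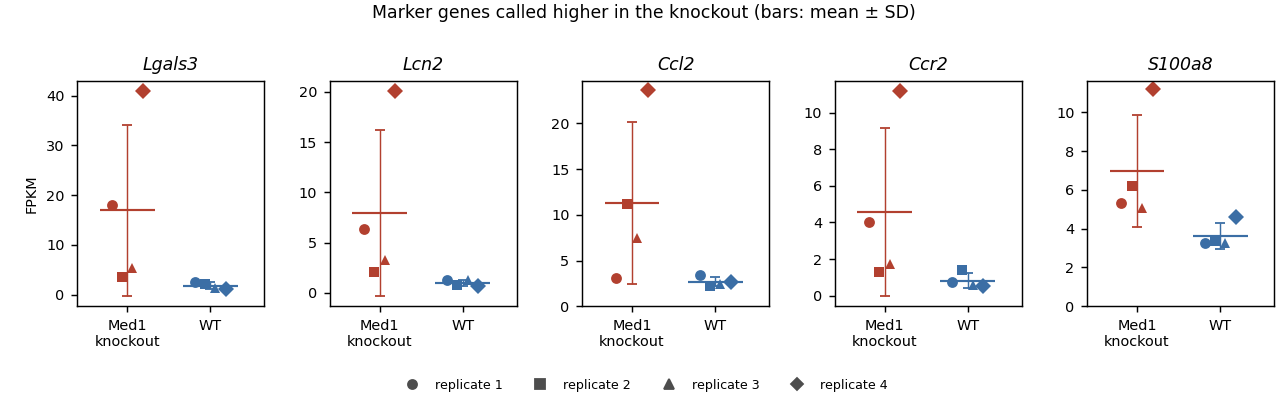
FPKM of the 5 members called higher in the knockout, with 1 point per library, the knockout in red left of WT in blue, the marker shape giving the replicate number and bars giving the mean ± SD over 4 libraries. Knockout 4 is the highest library in each, and for Lgals3, Lcn2 and S100a8 all 4 knockout libraries lie above all 4 WT libraries.

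Of the 3 neutrophil markers, Lcn2 and S100a8 passed, where 44.9% of all genes were called higher, and S100a9 did not. Lcn2 encodes lipocalin-2, a protein of neutrophil granules that binds bacterial siderophores and that epithelia and stressed heart cells also make (chromosome 2 from 32384637 to 32387739). It had 6.37, 2.10, 3.28 and 20.1 FPKM in the knockout libraries, against 1.28, 0.760, 1.25 and 0.684 FPKM in WT. The groups did not overlap, and the order of the knockout libraries was that of Lgals3, with knockout 4 highest and knockout 2 lowest. The means were 7.96 ± 8.29 FPKM in the knockout and 0.995 ± 0.316 FPKM in WT (SD, n = 4 each), a ratio of 8.01. The log2 change was 1.77 ± 0.503 (SE, adjusted p = 0.0126). It was 1.28 in the 6 libraries (adjusted p = 0.00956) and 0.95 in the 5 (adjusted p = 0.00836).

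S100a8 and S100a9 encode the subunits of calprotectin, a calcium- and zinc-binding protein of neutrophils and monocytes, and lie near each other on chromosome 3. S100a8 (from 90669071 to 90670034) had 5.33, 6.18, 5.08 and 11.2 FPKM in the knockout libraries, against 3.28, 3.38, 3.24 and 4.62 FPKM in WT. All knockout values lay above all WT values, the lowest of them 5.08 FPKM against 4.62 FPKM in WT 4. The log2 change was 0.73 ± 0.213 (SE, adjusted p = 0.0144), and 0.46 in the 6 libraries (adjusted p = 0.0233). After rescaling it was 0.50 and the call was lost (adjusted p = 0.075), as it was after quantile normalization (0.54, adjusted p = 0.0562). S100a9 had 4.94, 7.41, 4.25 and 18.1 FPKM in the knockout libraries, against 5.82, 4.70, 2.48 and 6.92 FPKM in WT. These overlapped, with knockout 4 the highest, and the change was 0.56 ± 0.402 (SE, adjusted p = 0.256) over the 8 libraries and -0.08 in the 6. The S100a9 mean was 1.74 times that of WT over the 8 libraries and 0.952 times without knockout 4 and WT 3.

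Defining genes of neutrophils were at very low levels. None of 11 further neutrophil markers reached a mean of 1 FPKM, and their summed level was 1.99 to 9.93 FPKM in the knockout libraries and 1.63 to 2.83 FPKM in WT. Elane, a protease of neutrophil granules, was listed at 0 in all libraries but knockout 1, where it had 0.104 FPKM. The most abundant of them, Retnlg, had 1.60, 0.692, 0.513 and 1.61 FPKM in the knockout libraries, against 0.183, 0.680, 0.163 and 0.714 FPKM in WT. Knockout 1 and 4 were the highest in Retnlg, and the groups overlapped.

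The MHC class II genes present peptides to helper T cells, and none of the 4 was called. Cd74, the invariant chain, had 78.1, 58.8, 83.4 and 75.9 FPKM in the knockout libraries, against 118, 169, 83.8 and 49.1 FPKM in WT. H2-Aa had 59.1, 36.9, 66.7 and 47.3 FPKM in the knockout libraries, against 81.3, 121, 55.7 and 30.7 FPKM in WT. The knockout libraries lay inside the wide range of WT, with WT 2 the highest and WT 4 the lowest of all 8. H2-Ab1 averaged 25.0 ± 5.66 FPKM in the knockout and 34.4 ± 20.8 FPKM in WT, and H2-Eb1 averaged 22.3 ± 4.17 FPKM in the knockout and 31.5 ± 16.5 FPKM in WT, with the same highest and lowest libraries. The log2 changes of the 4 genes ran from -0.37 for Cd74 to -0.28 for H2-Ab1, and the interval for Cd74 was -1.09 to 0.35 (95%). Without WT 4, the lowest library, the Cd74 change was -0.68 and passed (adjusted p = 0.0302). Without WT 2, the highest, it was -0.10 (adjusted p = 0.775), and the changes of H2-Aa, H2-Ab1 and H2-Eb1 were -0.02, 0.07 and -0.06. In the 6 libraries the changes of Cd74, H2-Aa, H2-Ab1 and H2-Eb1 were -0.45, -0.35, -0.36 and -0.41, and none passed. H2 genes are close in sequence and their reads may be shared.

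WT 2 was also the highest library in 14 of 19 genes of MHC class I and the interferon response. Irf1, an interferon-induced factor, was the 1 gene of the 19 called, with 11.5, 12.4, 10.7 and 10.2 FPKM in the knockout libraries, against 17.1, 23.4, 14.5 and 11.5 FPKM in WT (log2 change -0.49, adjusted p = 0.0387). Of all genes tested, 16.4% were called lower. Irf1 did not pass in the 6 libraries (-0.50, adjusted p = 0.0971). Ciita, the factor that switches on class II genes, stayed under the minimum, with 0.451 to 0.867 FPKM in the knockout libraries and 0.313 to 1.22 FPKM in WT. Of 10 other genes of the class II pathway tested, 5 were called higher (Lgmn, Cd40, Ifi30, Rfx5 and Rfxank) and none lower, where 44.9% of all genes were called higher. Of these, 3 passed in the 6 libraries, and Ifi30 (adjusted p = 0.0837) and Rfxank (0.192) did not. The lysosomal protease Lgmn had 140, 109, 129 and 123 FPKM in the knockout libraries, against 66.8, 51.1, 60.8 and 64.5 FPKM in WT (log2 change 1.03, adjusted p = 4.02e-05). Many cell types besides macrophages express Lgmn.

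The T cell markers Lck and Cd3e were near the floor of measurement except in WT 3, while the B cell marker Cd79a was lowest there. Lck, the kinase of the T cell receptor, had 0.318, 0.310, 0.431 and 0.401 FPKM in the knockout libraries, against 0.208, 0.480, 11.7 and 0.204 FPKM in WT. Cd3e, a chain of that receptor, had 0.122, 0.119, 0.118 and 0.222 FPKM in the knockout libraries, against 0.126, 0.190, 3.36 and 0.123 FPKM in WT. In both genes WT 3 alone stood apart, in the library with 10.1 FPKM of Rag1. The Lck change was -0.75 (adjusted p = 0.362) with WT 3 and 0.07 (adjusted p = 0.726) without it and knockout 4. Lck reached the minimum for testing only through WT 3, so the absence of a call says little of T cells in the other libraries. Cd79a, a chain of the B cell receptor, had 0.602, 0.587, 0.710 and 0.668 FPKM in the knockout libraries, against 0.550, 1.09, 0.245 and 1.48 FPKM in WT. Exact two-sided permutation tests of the FPKM gave p = 0.457 for Cd3e and 0.543 for Cd79a, both 0.543 when adjusted over these 2 tests. The smallest p that 70 assignments of 4 against 4 allow is 0.0286.

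**Figure D4:**
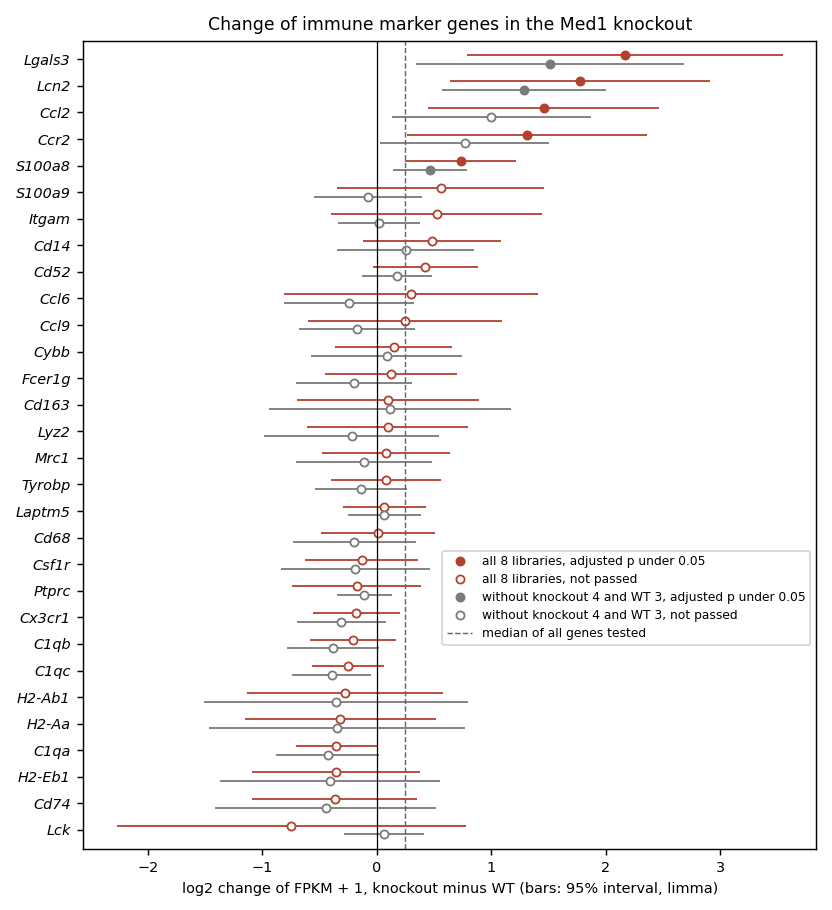
Log2 change of FPKM + 1, knockout minus WT, with 95% intervals from limma for the 30 members tested, in red over all 8 libraries and in grey without knockout 4 and WT 3; filled points had an adjusted p under 0.05 and the dashed line is the median of all genes tested over the 8 libraries (0.25). Lgals3, Lcn2 and S100a8 are filled in both, Ccl2 and Ccr2 only over the 8 libraries, and the intervals of most other members include 0.

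Further lists of immune cell genes were counted in the same fit, where 44.9% of all genes were called higher and 16.4% lower. Of 17 other pan-leukocyte genes, Plek was called higher and none lower. Of 13 other markers of resident macrophages, Gas6 was called higher, and Timd4 and Folr2, which mark the self-renewing macrophages of the heart, were called lower. Timd4 had 0.231, 0.751, 0.483 and 0.769 FPKM in the knockout libraries, against 2.34, 1.47, 1.34 and 1.01 FPKM in WT (log2 change -0.69, adjusted p = 0.0108). Folr2 had 4.68, 3.98, 4.43 and 7.87 FPKM in the knockout libraries, against 14.0, 8.05, 7.79 and 6.83 FPKM in WT (log2 change -0.69, adjusted p = 0.027). The Timd4 values did not overlap, and those of Folr2 did through knockout 4. Timd4 reached the minimum for testing only through its WT values, so a call of higher was hardly open to it. Timd4 and Folr2 both passed in the 6 libraries (adjusted p = 0.019 and 0.0112) and after rescaling. The count of resident macrophage markers called lower was 4 of 13 in the 6 libraries and after rescaling alike. Of all genes tested, 15.3% were called lower in the 6 libraries and 26.9% after rescaling.

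Of 4 other monocyte markers tested, Fn1 was called higher, with 60.5 FPKM in the knockout and 15.2 FPKM in WT, and fibroblasts also make its product fibronectin. Hp, which encodes haptoglobin, had 24.8, 1.35, 1.27 and 262 FPKM in the knockout libraries, against 0.474, 0.441, 2.47 and 0.529 FPKM in WT, and was not called. Ly6c2, a surface protein of inflammatory monocytes that endothelium also carries, averaged 40.8 ± 7.33 FPKM in the knockout and had a log2 change of -0.06 (adjusted p = 0.792). Irf8, of 3 dendritic cell markers tested, was called higher, with 3.54 FPKM in the knockout and 2.35 FPKM in WT, and passed neither in the 6 libraries (adjusted p = 0.0614) nor after rescaling (0.149). Blk, of 2 other B cell markers tested, was called higher, with 2.42 FPKM in the knockout and 0.386 FPKM in WT (log2 change 1.28, adjusted p = 0.00036). It reached the minimum only through its knockout values, so a call of lower was hardly open to it. Ms4a1, the B cell antigen CD20, was under 1 FPKM in every library.

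None of 4 other T and NK cell markers, 3 thymocyte markers or 7 red cell and platelet markers tested was called, and no mast cell marker reached the minimum. The summed level of the red cell and platelet list was 1208 to 10360 FPKM in the knockout libraries and 1359 to 7055 FPKM in WT, highest in knockout 4 and WT 4. Its part in the results above was not tested.

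Growth factors and sensors of macrophages were counted as well. The ligands of Csf1r were not called, with a log2 change of -0.28 for Csf1 (adjusted p = 0.242) and 0.06 for Il34 (adjusted p = 0.668). Csf1 was called lower in the 6 libraries (-0.61, adjusted p = 0.00139) and after rescaling (-0.55, adjusted p = 0.0417). Csf2rb and Csf2rb2, the near-identical common beta chains of the GM-CSF and IL-3 receptors, were called higher, with log2 changes of 0.85 and 0.89. Csf2rb passed in the 6 libraries, with a change of 0.64, and Csf2rb2 did not (0.72, adjusted p = 0.0531). Of 8 Toll-like receptor genes tested, 3 were called higher (Tlr4, Lbp and Myd88) and none lower, against 44.9% and 16.4% of all genes. Lbp did not pass in the 6 libraries (adjusted p = 0.0524). Tlr4, the partner of Cd14 in sensing lipopolysaccharide, had 19.3, 25.0, 22.1 and 18.8 FPKM in the knockout libraries, against 4.94, 3.81, 4.79 and 3.73 FPKM in WT (log2 change 2.07, adjusted p = 1.71e-06). Its groups stood far apart and no library stood out. None of 5 other phagocyte oxidase genes was called, and Cyba was called lower after rescaling (log2 change -0.37, adjusted p = 0.0149).

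Of 8 inflammatory mediators tested, 5 were called higher (Il6, Spp1, Gpnmb, Ptgs2 and Tgfb1) and none lower, against 44.9% and 16.4% of all genes. Gpnmb, a glycoprotein of macrophages loaded with lipid, had 5.74, 1.56, 3.94 and 1.52 FPKM in the knockout libraries, against 0.153, 0.183, 0.0195 and 0.0427 FPKM in WT (log2 change 1.80, adjusted p = 0.000746). Spp1, which encodes osteopontin and is made by macrophages and muscle cells, had 2.66, 1.81, 2.98 and 16.4 FPKM in the knockout libraries, against 0.191, 0.296, 0.510 and 0.434 FPKM in WT (log2 change 1.93, adjusted p = 0.00712). The groups did not overlap in either gene. Both passed in the 6 libraries, with log2 changes of 1.97 for Gpnmb and 1.40 for Spp1. Il6 had 0.507, 3.79, 2.77 and 2.41 FPKM in the knockout libraries and was listed at 0 in WT 1, 2 and 3, with 0.0848 FPKM in WT 4. Gpnmb, Spp1 and Il6 reached the minimum for testing only through their knockout values, so a call of lower was hardly open to them.

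The median log2 changes of these lists lay on both sides of the 0.25 of all genes tested. They were -0.22 for the other resident macrophage markers, -0.15 for MHC class I and interferon genes and 0.00 for the other pan-leukocyte genes. They were 0.10 for the other chemokines, 0.37 for the other class II pathway genes and 0.32 for the Toll-like receptor genes. Medians further out were 1.535 for 4 other monocyte markers, 0.84 for 8 inflammatory mediators, -0.725 for 4 other T and NK cell markers and -0.82 for 3 thymocyte markers. After rescaling, several counts changed and no gene called in both fits turned its direction. On that scale 27.0% of all genes were called higher and 26.9% lower. The rescaled counts were 5 higher and 3 lower for the other complement genes, 2 higher and none lower for the class II pathway, 1 higher and none lower for the partners of the ITAM adaptors, and none higher and 1 lower for the pan-leukocyte genes. They were 2 higher and 4 lower for the other chemokines, 4 higher and 1 lower for the mediators, 3 higher and none lower for the Toll-like receptor genes and none higher and 3 lower for MHC class I and interferon genes. They were 1 higher and 1 lower for the other galectins, none higher and 1 lower for the dendritic cell markers, and 2 higher and 1 lower for the growth factors and receptors of macrophages. In the 6 libraries the counts were 5 higher and 2 lower for the other complement genes and 2 higher and 3 lower for the other chemokines. They were 5 higher and none lower for the mediators. Of all genes, 41.1% were called higher and 15.3% lower in these 6 libraries.

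The authors' deposited table gives its own test on values pooled over the libraries of a group. All 32 members are tested there, and the authors' deposited table marks 5 as significantly higher in the knockout (Lgals3, Lcn2, Ccr2, Ccl2 and Itgam) and 12 as lower, against 23.1% and 22.8% of all genes it tests. The 12 are C1qa, C1qb, C1qc, Cd74, H2-Aa, H2-Ab1, H2-Eb1, Csf1r, Cx3cr1, Ptprc, Lck and Cd3e. For C1qa the authors' deposited table has 49.0 FPKM in the knockout and 76.4 FPKM in WT, with a log2 fold change of -0.64. For Lck the authors' deposited table has 0.377 FPKM in the knockout and 4.02 FPKM in WT, and for Cd3e 0.153 and 1.21 FPKM, where the excess in WT lies in WT 3 alone in the values by library. Itgam is marked there with a log2 fold change of 0.82, where the values by library showed the excess in knockout 4 alone. S100a8 is not marked as significant there (q = 0.286). Pooled WT values in the authors' deposited table were above the means of the 4 WT libraries for every member, whichever way it was marked. For Lgals3 the pooled value was 2.33 against a mean of 1.81 FPKM in WT, and 17.6 against 17.0 FPKM in the knockout. For S100a8 it was 4.69 against 3.63 FPKM in WT, and 7.34 against 6.95 FPKM in the knockout. The part of this difference in scale in the 12 genes marked lower was not tested.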

How the data were processed

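Stranded libraries were prepared from poly(A) RNA of 8 ventricle samples, per the labels' protocols. The submitters' processing notes name mm10, TopHat (version 1.0.0), Cufflinks and Cuffdiff. The annotation, the read length and any use of strand in counting were not given in the sources used here. Genes that overlap another row (Mrc1 with Mir511, Ccl6 with E230016K23Rik, Cd74 with Mir5107) may share reads with it. The deposited table of FPKM, a row for each gene and a column for each library per the file headers, has a word in place of a number in 312 rows of every library, which were left out with 1 further row that failed in WT 2 only. Values of 0.001 FPKM, which the authors wrote for an estimate of zero, were taken as 0. The other deposited table gives values of the authors by group, namely pooled FPKM, log2 fold changes, p-values, q-values and test scores. FPKM gives no fragment counts, so total depth is unknown and no counting interval is given. Summed FPKM lay between 481719 and 502629 in knockout libraries and between 507484 and 536174 in WT libraries, and the libraries separated by group on the first principal component.

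Library columns were matched to samples by the labels' descriptions and groups taken from titles. Limma (version 3.58.1, R 4.3.3) was fitted with an intensity trend to log2(FPKM + 1) over all genes averaging 1 FPKM or more, without covariates. P-values were two-sided and Benjamini-Hochberg adjusted over all 11974 genes, with a threshold of 0.05. Log2 changes are knockout minus WT on this scale, which understates changes of low genes. Log2 changes of the 6 and 5 libraries are refits of all genes. The script was tested on simulated data with known changes. The members, the lists of other immune and tissue genes and the tests were chosen with earlier results of these data known. Every member is named. From each further list the text names up to 3 called genes of largest change, or the most abundant where none was called, and other genes named beside them were chosen after their values were seen. Alternatives were a pseudocount of 0.1, either no minimum or 5 FPKM as the minimum, median-of-ratios and quantile scaling, limma without trend, with robust variances, with array weights or with a replicate block, and libraries left out.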

Additional observations from a re-analysis of the deposited data

Results flagged for a closer look

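Single libraries stood apart from the other 3 of their group in 9 of the 68 sets of 4 values examined for the members and neighbours given with them, by a gap above Dixon's critical value. For independent sets of normally distributed values chance gives about 1 in 20. The sets here are FPKM of related genes in the same 8 libraries and are not independent, so the count cannot be weighed against that rate. Knockout 4 accounted for 4 of the 9 and WT 3 for 3.

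In knockout 4, Ptprc had 4.37 FPKM, against 2.25 to 2.55 FPKM in the other knockout libraries. Ccl6 had 35.3 FPKM there, against 4.82 to 9.60 FPKM. Itgam had 10.1 FPKM, against 1.43 to 2.46 FPKM, and Cd3e had 0.222 FPKM, against 0.118 to 0.122 FPKM. Knockout 4 is the library with the highest levels of the fat, airway, mesothelium and atrial genes. Their part in these values was not tested.

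In WT 3, Lck had 11.7 FPKM, against 0.204 to 0.480 FPKM in the other WT libraries, Cd3e had 3.36 FPKM, against 0.123 to 0.190 FPKM, and Ptprc had 6.00 FPKM, against 2.48 to 2.77 FPKM. The summed level of the 7 thymocyte markers was 48.3 FPKM in the same library. Itgam had 2.06 FPKM in WT 1, against 1.72 to 1.77 FPKM in the other WT libraries. S100a8 had 4.62 FPKM in WT 4, against 3.24 to 3.38 FPKM, and still lay under the lowest knockout value of 5.08 FPKM.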

How the results depend on the processing

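With a minimum of 5 FPKM 21 members were tested, and Lgals3, Ccl2 and S100a8 were called higher in the knockout. Of the 8279 genes tested with that minimum, 4196 were called higher and 1508 lower. Lcn2 and Ccr2, with means of 4.48 and 2.69 FPKM, fell under that minimum and were not tested. The count of members higher was also 3 in place of 5 after median-of-ratios rescaling, after quantile normalization and without knockout 4 and WT 3. The cause in these settings was not tested beyond what each removes. The count of members lower was 3 in place of 0 after either rescaling, 1 with array weights and 1 without knockout 1, knockout 4 and WT 3, the last of these chosen after the data were seen. Leaving out 1 library at a time gave 4 to 6 members higher and 0 to 2 lower, the 2 without WT 4. Of all 11974 genes these fits called 4900 to 5278 higher and 1798 to 1949 lower, and the fit with array weights called 5716 and 2156. Over all genes, median-of-ratios rescaling gave 3236 higher and 3223 lower and quantile normalization 3437 and 3067, in place of 5371 and 1964. Lgals3 and Lcn2 passed in every fit run that kept them past the minimum, and no called member turned its direction. With the replicate number as a block, 5 members were higher and 0 lower, 5089 genes in all were higher and 1867 lower, and all 30 members kept their side of the threshold. The numbers pair nothing in the labels, and deviations of same-numbered libraries correlated at 0.14, 0.0325, -0.0409 and -0.0138, with 1 of the 4 numbers highest within its own pair. FPKM without fragment counts leaves the precision of genes near 1 FPKM, such as Ccr2 and Lcn2 in WT, unknown.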
